A study of Mus musculus with 13 samples.

Results

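The genes described here are 8 white adipocyte markers, Adipoq, Lep, Retn, Cfd, Plin1, Cidec, Adig and Pck1, read by symbol from the count files of 13 mouse hearts. They are 8 of the 24061 gene symbols counted, and each of the 8 was found in the files. They were compared heart by heart between genotypes as a measure of fat tissue attached to the sample. The hearts came from male C57BL/6N mice, 13 weeks of age and on a chow diet, and differed in the E3A allele of Cpt1b. The study's title describes the mouse as having a CPT1B that malonyl-CoA inhibits less. E3A/E3A hearts carried the allele on both chromosomes (5 hearts), WT/E3A hearts on a single chromosome (4 hearts), and WT/WT hearts on neither (4 hearts). The labels call 4 libraries potential outliers: E3A/E3A replicates 1 and 2, WT/E3A replicate 1 and WT/WT replicate 1. Whether the hearts came from littermates, and how the hearts were trimmed, is not given in the sources used here. Each library was treated as a separate heart, so p-values measure the spread between these 13 samples.

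White adipocytes store triglyceride in a large lipid droplet and release its fatty acids when they are needed elsewhere. They also secrete hormones that act on appetite, insulin action and lipid use in other organs. The muscle of the mouse heart stores little fat of its own, but fat depots lie on its surface, around the great vessels and next to the thymus. Some of those depots hold brown adipocytes, which burn fat to make heat through UCP1.

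In WT/WT replicate 1, a library described as a potential outlier, each of the 8 markers was at its highest level among the 13 hearts. Elsewhere the 8 markers together took 65 to 280 reads per heart. None of the 6 markers with enough reads to be tested was called different between any genotypes. With all 13 libraries, 1 of 14387 genes was called in E3A/E3A against WT/WT, and 0 in each other comparison. Of the fold changes against WT/WT, 2 of 6 in E3A/E3A and 4 of 6 in WT/E3A hearts changed direction when WT/WT replicate 1 was left out. Over the 9 hearts not described as potential outliers, Pck1 levels ran alongside those of hepatocyte transcripts.

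The sequences before the gene starts of Adipoq, Lep and Pck1 are shown as examples, and each held a match to a searched motif. Adig also held a match but is not shown. Adipoq and Lep encode the best known fat hormones, and Pck1 encodes an enzyme that liver makes as well as fat. Each is the 250 bases before the RefSeq gene start on GRCm38.p6, written 5′ to 3′ on the gene's strand. They lie at chr16:23146286-23146535 (plus strand) for Adipoq, chr6:29059971-29060220 (plus strand) for Lep and chr2:173152823-173153072 (plus strand) for Pck1. Capitals mark matches, on either strand, to CCAAT, TTGCGCAA (a palindrome bound by C/EBP factors), ACGTCA (the core of a cyclic AMP response element), AGGTCA (a nuclear receptor core), the direct repeat of AGGTCA with 1 base between that PPAR and RXR bind, or TATAAA.
Adipoq: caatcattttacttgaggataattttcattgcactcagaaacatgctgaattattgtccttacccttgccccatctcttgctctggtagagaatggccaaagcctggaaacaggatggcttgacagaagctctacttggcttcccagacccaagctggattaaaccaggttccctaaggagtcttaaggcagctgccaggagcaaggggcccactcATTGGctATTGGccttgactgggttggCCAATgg
Lep: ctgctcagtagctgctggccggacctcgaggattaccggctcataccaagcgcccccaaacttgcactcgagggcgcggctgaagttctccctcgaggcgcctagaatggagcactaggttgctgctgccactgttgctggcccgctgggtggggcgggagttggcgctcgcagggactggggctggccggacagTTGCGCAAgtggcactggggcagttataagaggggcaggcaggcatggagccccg
Pck1: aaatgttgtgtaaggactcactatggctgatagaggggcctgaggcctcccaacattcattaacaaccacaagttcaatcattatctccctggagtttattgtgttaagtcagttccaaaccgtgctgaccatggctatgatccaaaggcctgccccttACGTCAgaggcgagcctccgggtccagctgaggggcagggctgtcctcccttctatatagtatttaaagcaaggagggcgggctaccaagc
Adipoq held 3 matches to CCAAT, Lep held the TTGCGCAA palindrome 55 bases before the start, and Pck1 held ACGTCA 91 bases before the start. Among 32536 windows of 250 bases, 33.8% held CCAAT, 0.166% held TTGCGCAA and 6.5% held ACGTCA. Of the other searched motifs, AGGTCA was in 14.0% of windows, TATAAA in 12.3% and the direct repeat, which holds AGGTCA by construction, in 0.0338%. All 8 markers had a window, and among the other 5 the search matched AGGTCA once, in Adig. A match describes letters only, not bound protein.

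Libraries held 20.1 to 52.6 M counted reads. The tissue carried its own defining markers: Myh6, the alpha myosin heavy chain of heart muscle, took 3.90 to 9.49% of reads. The 4 libraries described as potential outliers had the highest Myh6 shares, 6.59 to 9.49%, against 3.90 to 4.61% in the other 9. The common coefficient of variation edgeR estimated was 28.9% with all 13 libraries and 7.85% with the 9. Of 14387 genes tested, 2487 (17.3%) had their highest level in WT/WT replicate 1. Cpt1b was counted at 2.36 to 3.74 CPM in E3A/E3A, 1.82 to 3.20 CPM in WT/E3A and 1.58 to 3.00 CPM in WT/WT hearts. Those counts do not show which allele is present, so they do not check the genotype labels. Nor are they read as the level of Cpt1b RNA in heart muscle, since the handling of reads shared by overlapping genes is not stated. Levels below are CPM, counts relative to library size, after TMM scaling over the 13 libraries, and gene positions are on GRCm38. A count of 0 allows a level of up to 0.0687 to 0.141 CPM, depending on the library (3 reads, counting error only).

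The 8 markers together took 65 to 849 reads per heart. Their summed level was 6.08, 2.90, 3.36, 5.65 and 6.25 CPM in E3A/E3A replicates 1 to 5. It was 5.16, 3.91, 6.37 and 3.70 CPM in WT/E3A replicates 1 to 4. In WT/WT replicates 1 to 4 it was 19.4, 6.42, 2.99 and 3.57 CPM. WT/WT replicate 1 lay far above the rest, and the other 12 hearts of the 3 genotypes overlapped throughout. Group averages were 4.85 ± 1.59 CPM in E3A/E3A (SD, n = 5), 4.79 ± 1.24 CPM in WT/E3A (SD, n = 4) and 8.11 ± 7.71 CPM in WT/WT hearts (SD, n = 4). Without WT/WT replicate 1 the WT/WT average was 4.33 ± 1.84 CPM (SD, n = 3), which differed from both other groups by less than 1 SD. In bulk RNA, more adipocytes in a sample and more RNA per adipocyte cannot be told apart.

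**Figure D1:**
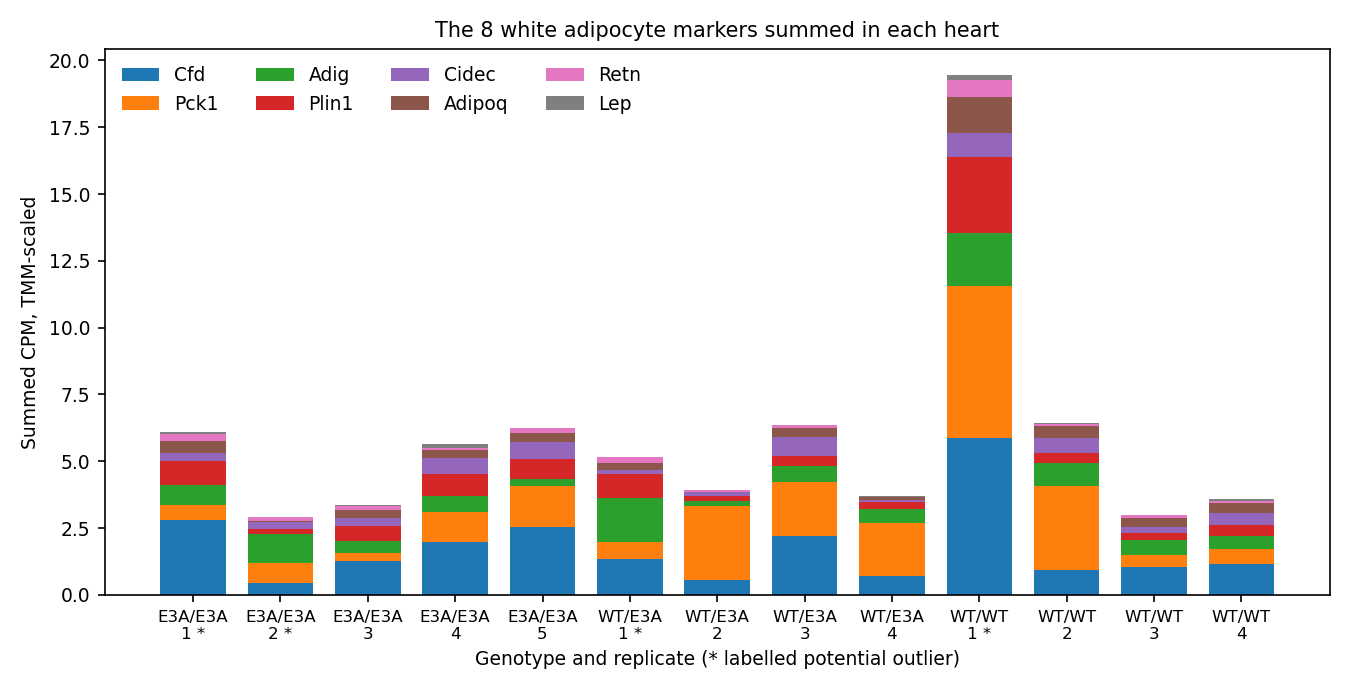
Summed level of the 8 markers in each heart, in CPM after TMM scaling; each bar is a heart, its colors are the markers, and asterisks mark libraries described as potential outliers. WT/WT replicate 1 reached 19.4 CPM, while the other 12 hearts lay between 2.90 and 6.42 CPM.

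Per kilobase of exon, Cfd was the most abundant of the markers and Lep the least. Averages over the 13 hearts were 1.91 CPM per kilobase for Cfd, 0.946 for Adig and 0.483 for Pck1. They were 0.260 for Adipoq, 0.221 for Cidec, 0.146 for Plin1, 0.101 for Retn and 0.0131 for Lep. Exons of none of the 8 overlapped those of another annotated gene on either strand in the GENCODE annotation of GRCm38. Of the 8, 6 had enough reads to be tested for genotype differences. Lep and Retn, with 22 and 74 reads over all hearts, did not pass the filter on low counts.

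The secreted products come first. Adipoq (chr16:23146536-23157968) encodes adiponectin, the hormone of adipocytes that raises fatty acid oxidation and insulin sensitivity. Its level was 0.433, 0.0446, 0.324, 0.322 and 0.323 CPM in E3A/E3A replicates 1 to 5, and 0.241, 0, 0.346 and 0.122 CPM in WT/E3A replicates 1 to 4. In WT/WT replicates 1 to 4 it was 1.37, 0.436, 0.315 and 0.389 CPM. The groups overlapped, WT/WT replicate 1 was 3.15 times the next heart, and WT/E3A replicate 2 had no read. The 3 E3A/E3A hearts not described as potential outliers were almost equal, at 0.323 ± 0.00109 CPM (SD, n = 3), on 8 to 13 reads each. The adiponectin receptor gene Adipor1 averaged 189 ± 7.18 CPM in E3A/E3A (SD, n = 5), 214 ± 31.6 CPM in WT/E3A (SD, n = 4) and 211 ± 17.3 CPM in WT/WT hearts (SD, n = 4).

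Lep (chr6:29060221-29073876) encodes leptin, the hormone that reports fat stores to the brain. It was measured at 0.0764, 0, 0.0498, 0.146 and 0 CPM in E3A/E3A replicates 1 to 5, and at 0, 0, 0.0288 and 0.0407 CPM in WT/E3A replicates 1 to 4. In WT/WT replicates 1 to 4 it was at 0.160, 0.0229, 0 and 0.0458 CPM. Reads were present in 8 of 13 hearts, from each genotype, and most of the values lie within what a count of 0 allows. Retn (chr8:3655770-3659818) encodes resistin, an adipocyte hormone in mice. It stood at 0.255, 0.134, 0.125, 0.0585 and 0.202 CPM in E3A/E3A replicates 1 to 5, at 0.241, 0.0471, 0.0865 and 0 CPM in WT/E3A replicates 1 to 4, and at 0.641, 0.0917, 0.118 and 0.0687 CPM in WT/WT replicates 1 to 4. WT/WT replicate 1 was again the highest heart, with the other 3 WT/WT hearts inside the range of E3A/E3A hearts.

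Cfd (chr10:79890853-79892655) encodes adipsin, also called complement factor D, the protease that starts the alternative complement pathway and one of the most abundant mouse adipocyte products. Its level was 2.80, 0.446, 1.27, 1.99 and 2.54 CPM in E3A/E3A replicates 1 to 5, and 1.34, 0.565, 2.22 and 0.692 CPM in WT/E3A replicates 1 to 4. In WT/WT replicates 1 to 4 it was 5.89, 0.917, 1.06 and 1.17 CPM. Over the 13 hearts the groups overlapped. In the 9 hearts not described as potential outliers, all 3 E3A/E3A hearts were above all 3 WT/WT hearts, at 1.93 ± 0.637 CPM in E3A/E3A and 1.05 ± 0.126 CPM in WT/WT (SD, n = 3 each). Such a separation held for 7.19% of all tested genes.

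The droplet proteins were also low. Plin1 (chr7:79721164-79732904, minus strand) encodes perilipin 1, which coats the droplet of adipocytes and holds back lipolysis. It was at 0.916, 0.178, 0.573, 0.819 and 0.726 CPM in E3A/E3A replicates 1 to 5, and at 0.895, 0.188, 0.375 and 0.244 CPM in WT/E3A replicates 1 to 4. The WT/WT replicates 1 to 4 had it at 2.84, 0.367, 0.275 and 0.412 CPM. With all 13 hearts the groups overlapped. In the 9, the E3A/E3A hearts stood above both other groups, at 0.706 ± 0.124 CPM in E3A/E3A, 0.269 ± 0.0956 CPM in WT/E3A and 0.352 ± 0.0696 CPM in WT/WT (SD, n = 3 each). Of all tested genes, 7.19% were higher in this way than in WT/WT and 5.69% than in WT/E3A.

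Cidec (chr6:113424634-113435760, minus strand) encodes a droplet protein that lets small droplets feed larger ones. It was at 0.305, 0.268, 0.274, 0.585 and 0.645 CPM in E3A/E3A replicates 1 to 5, at 0.172, 0.141, 0.721 and 0.0814 CPM in WT/E3A replicates 1 to 4, and at 0.893, 0.573, 0.236 and 0.435 CPM in WT/WT replicates 1 to 4. Its highest heart was only 1.24 times the next, WT/E3A replicate 3, and the 3 groups overlapped. The related droplet coat gene Plin4, which heart muscle expresses, was at 329 ± 87.1 CPM in E3A/E3A (SD, n = 5), 383 ± 109 CPM in WT/E3A (SD, n = 4) and 323 ± 117 CPM in WT/WT hearts (SD, n = 4).

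Adig (chr2:158502612-158508198) encodes adipogenin, a small membrane protein made during fat cell differentiation. Its level was 0.738, 1.07, 0.449, 0.614 and 0.282 CPM in E3A/E3A replicates 1 to 5, 1.62, 0.188, 0.576 and 0.529 CPM in WT/E3A replicates 1 to 4, and 1.99, 0.848, 0.551 and 0.504 CPM in WT/WT replicates 1 to 4. The 4 libraries described as potential outliers had 0.738 to 1.99 CPM, and the other 9 had 0.188 to 0.848 CPM, so that only WT/WT replicate 2 of the 9 was inside the range of the 4. The genotypes overlapped. E3A/E3A replicate 2, where Adipoq was lowest among hearts with a read, had the third highest Adig.

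**Figure D2:**
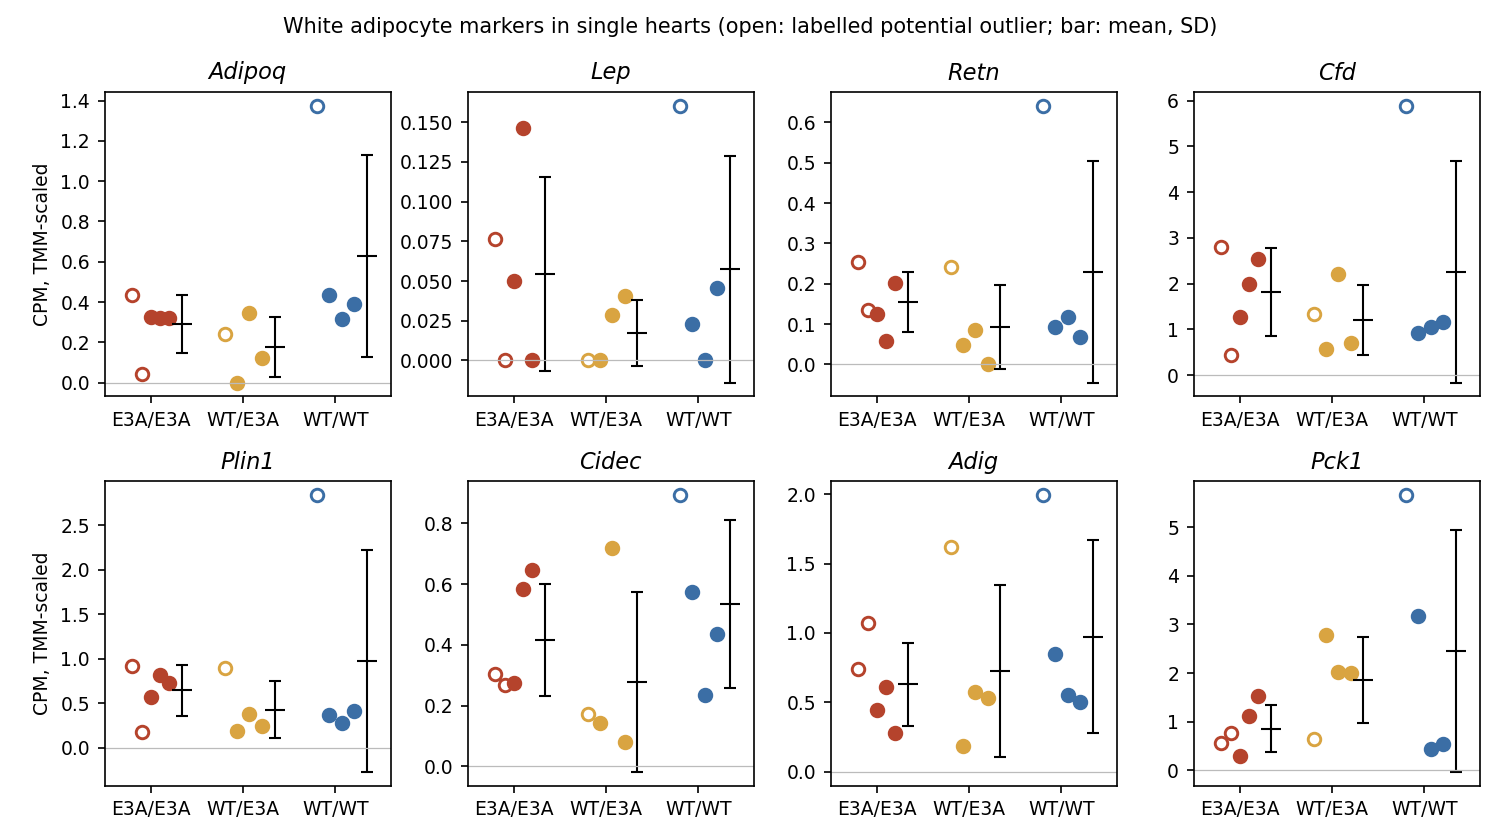
Level of each marker in each heart, in CPM after TMM scaling, by genotype; open points are libraries described as potential outliers, and the black bar is the group's mean with its SD. WT/WT replicate 1 is the highest point in all 8 panels, and among the remaining hearts the genotypes overlap in each panel.

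Pck1 (chr2:173153073-173159274) encodes the cytosolic phosphoenolpyruvate carboxykinase, which makes glycerol backbone for triglyceride in fat and glucose in liver and kidney. It was at 0.560, 0.758, 0.299, 1.11 and 1.53 CPM in E3A/E3A replicates 1 to 5, and at 0.654, 2.78, 2.02 and 1.99 CPM in WT/E3A replicates 1 to 4. In WT/WT replicates 1 to 4 it was at 5.66, 3.16, 0.433 and 0.549 CPM. The WT/E3A hearts with the fewest reads of the other markers, replicates 2 and 4, were among the highest for Pck1. Pck1 made up 8.89% of marker reads in E3A/E3A replicate 3, its lowest share, and 71.1% in WT/E3A replicate 2, its highest.

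Hepatocyte transcripts, which the heart does not make in quantity, were present in the same hearts, so 11 of them were added as a list after the values had been seen. The liver's main plasma protein, albumin (Alb), was counted at 0.0509, 9.86, 0, 9.48 and 4.52 CPM in E3A/E3A replicates 1 to 5, at 3.20, 28.5, 8.62 and 14.4 CPM in WT/E3A replicates 1 to 4, and at 9.60, 41.7, 0 and 0.687 CPM in WT/WT replicates 1 to 4. The 11 genes were detected in each group, and their summed level ranged from 0.922 to 21.0 CPM in E3A/E3A, from 7.78 to 51.4 CPM in WT/E3A and from 0.944 to 73.5 CPM in WT/WT hearts. The 2 hearts with no Alb read, E3A/E3A replicate 3 and WT/WT replicate 3, had the lowest Pck1 levels. WT/WT replicate 2, with the most Alb, had the second highest. Over the 9 hearts not described as potential outliers, log2 Pck1 and log2 summed hepatocyte level (0.1 CPM added) had a Pearson's r of 0.97 (exact permutation p = 0.000149, two-sided) and a Spearman's rho of 0.917 (exact permutation p = 0.00131). Adjusted over the 2 relations computed, these were 0.000298 and 0.00262. Without E3A/E3A replicate 3 and WT/WT replicate 3, the hearts farthest from the median hepatocyte level, r was 0.933. For the other 7 markers summed, r was -0.21 and rho was -0.117 over the same hearts, with exact permutation p of 0.597 and 0.776, the same after adjustment. Without the same 2 hearts that r was -0.387. Both relations were chosen after the values had been seen, and the part of hepatocyte transcripts in the Pck1 differences was not tested.

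**Figure D3:**
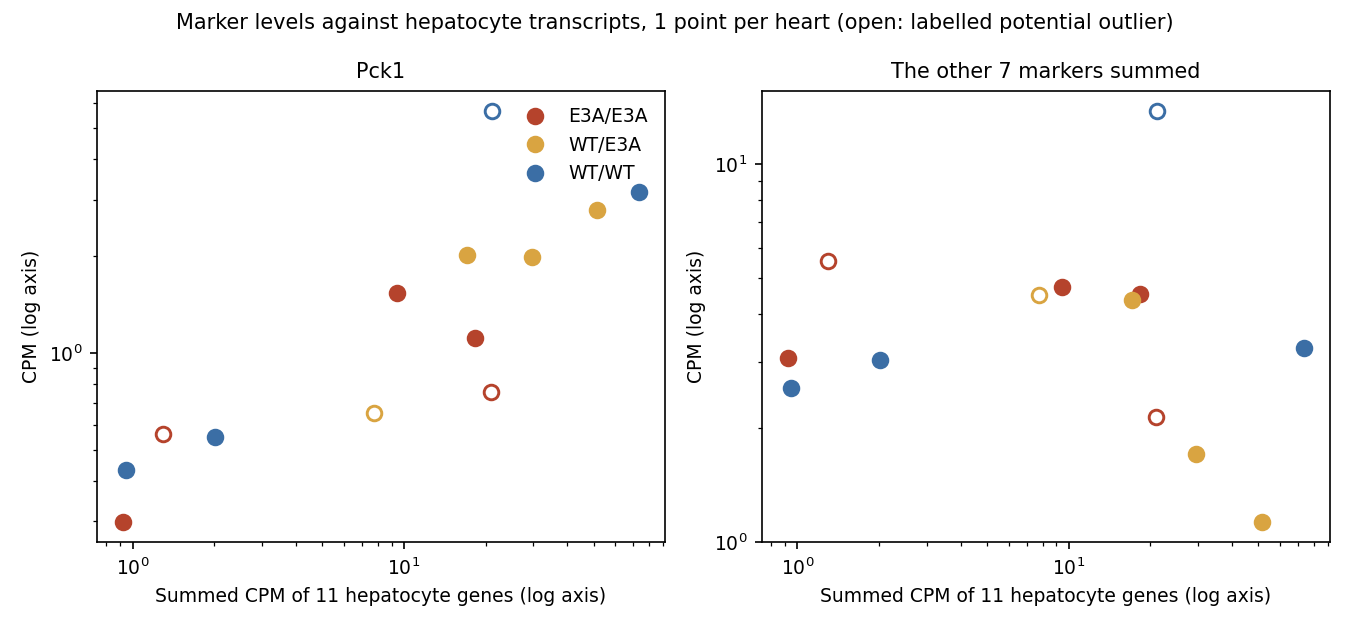
Level of Pck1 (left) and summed level of the other 7 markers (right) against the summed level of 11 hepatocyte genes, in CPM on log axes; each point is a heart, colored by genotype, and open points are libraries described as potential outliers. Among filled points Pck1 climbs with the hepatocyte genes (r = 0.97), while the other 7 markers do not (r = -0.21); WT/WT replicate 1 lies above the rest in both panels.

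E3A/E3A hearts were set against WT/WT hearts to ask whether the homozygous allele went with a different amount of adipocyte RNA. None of the 6 tested markers was called by edgeR's quasi-likelihood test, and their Benjamini-Hochberg adjusted p was 1.0 throughout. Over all genes tested, 0.00695% were called. At an unadjusted p under 0.05 there was 1 of 6 markers, Pck1 at 0.0497, against 1.2% of all genes. DESeq2 and limma-voom also called 0 markers, where they called 24 and 1 of 14387 genes. At an unadjusted p under 0.05 they had 1 and 0 markers, against 224 and 175 genes. DESeq2 gave Plin1 a log2 fold change of -0.61 but no p-value, so it did not test that marker. The log2 fold changes, E3A/E3A over WT/WT, were -1.08 for Adipoq (SE 0.60), -0.32 for Cfd (SE 0.64), -0.60 for Plin1 (SE 0.69), -0.40 for Cidec (SE 0.54), -0.65 for Adig (SE 0.56) and -1.56 for Pck1 (SE 0.72). All 6 had a lower fitted level in E3A/E3A, where 56.3% of all genes did, and their median was -0.63 beside -0.02 over all genes. Lep and Retn, fitted without the filter, came to -0.04 and -0.60, both at an adjusted p of 1.0. No marker had groups that did not overlap, higher (0.299% of genes) or lower (0.563%).

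Without WT/WT replicate 1, 4 of 6 markers stayed on the lower side in E3A/E3A and 2 turned. Pck1 was then at -0.76, Adipoq at -0.35, Cidec at -0.05 and Adig at -0.03, while Cfd was at 0.80 and Plin1 at 0.87, and the median was -0.04. With the 9 hearts not described as potential outliers, 3 of 6 markers were lower, where 49.4% of genes were, and the median was -0.05. Plin1 then had the lowest p of the 6, with a log2 fold change of 0.96 (SE 0.30; 95% interval 0.30 to 1.61), an unadjusted p of 0.00707 and an edgeR adjusted p of 0.329. It was the only 1 of 6 under an unadjusted 0.05, against 7.69% of genes, and 0.271% of genes were called. Cfd and Plin1 were higher in every E3A/E3A heart than in any WT/WT heart, which held for 7.19% of genes; no marker was lower in every heart, which held for 6.94%.

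WT/E3A hearts were set against the same WT/WT hearts, so the comparisons are not independent. edgeR called 0 of 6 markers and 0.0% of all genes, with an adjusted p of 1.0 for each marker. Adipoq alone had an unadjusted p under 0.05, at 0.0288, where 0.813% of genes did. DESeq2 and limma-voom each called 0 markers and 0 of 14387 genes. Each had 1 marker under an unadjusted 0.05, against 160 and 112 genes. The log2 fold change of Adipoq, WT/E3A over WT/WT, was -1.72 in edgeR (SE 0.69; 95% interval -3.23 to -0.21). The others were -0.89 for Cfd (SE 0.70), -1.18 for Plin1 (SE 0.77), -0.87 for Cidec (SE 0.59), -0.41 for Adig (SE 0.60) and -0.42 for Pck1 (SE 0.74). All 6 were on the lower side in WT/E3A (50.6% of genes), with a median of -0.88 against -0.00 over all genes. The unfiltered values of Lep and Retn were -1.59 and -1.24, again at an adjusted p of 1.0. Groups overlapped for each marker, while they did not for 0.598% of genes on the higher side and 0.542% on the lower.

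Leaving out WT/WT replicate 1 turned 4 of these 6, to 0.24 for Cfd, 0.29 for Plin1, 0.22 for Adig and 0.38 for Pck1, and gave a median of 0.23. Adipoq stayed on the lower side at -0.98 (SE 0.63), with an unadjusted p of 0.144. In the 9 hearts Adipoq was at -1.08 (SE 0.54; unadjusted p = 0.0649, edgeR adjusted p = 0.786), with 4 of 6 markers lower (50.5% of genes) and a median of -0.32. No marker reached an unadjusted 0.05 there (6.36% of genes) or an adjusted one (0.0209%). Groups overlapped for each, while 6.44% of genes were higher and 6.28% lower in every WT/E3A heart.

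Between the genotypes that carry the allele, E3A/E3A against WT/E3A, WT/WT replicate 1 enters only through the shared spread and scaling. Markers called by edgeR were 0 of 6, and so were 0.0% of all genes; no marker had an unadjusted p under 0.05, against 1.45% of genes. The same counts of markers, 0 and 0, came from DESeq2 and limma-voom. Those tools called 4 and 0 of 14387 genes, with 313 and 213 under an unadjusted 0.05. Log2 fold changes, E3A/E3A over WT/E3A, were 0.64 for Adipoq (SE 0.71), 0.56 for Cfd (SE 0.67), 0.58 for Plin1 (SE 0.76), 0.46 for Cidec (SE 0.59), -0.24 for Adig (SE 0.59) and -1.14 for Pck1 (SE 0.73). Of the 6, 2 were lower in E3A/E3A (55.0% of genes), and the median was 0.51 against -0.02 over all genes. Lep and Retn came to 1.55 and 0.64 without the filter, at an adjusted p of 1.0. Groups of each marker overlapped, and did not for 0.507% of genes on the higher side and 0.487% on the lower.

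With the 9 hearts, Plin1 was 2.47-fold higher in E3A/E3A than in WT/E3A (log2 1.31, SE 0.34; 95% interval 0.59 to 2.03), at an unadjusted p of 0.00161 and an edgeR adjusted p of 0.455. It was the single marker under an unadjusted 0.05, against 6.91% of genes, and 0.0417% of genes were called. Only Pck1 was on the lower side (49.2% of genes), at -1.27 (SE 0.89), and the median was 0.53. Plin1 was higher (5.69% of genes) and Pck1 lower (5.54% of genes) in every E3A/E3A heart than in any WT/E3A heart. For Pck1, the hepatocyte genes of those hearts summed to 0.922, 18.3 and 9.44 CPM in E3A/E3A replicates 3 to 5 and to 51.4, 17.1 and 29.5 CPM in WT/E3A replicates 2 to 4. Their part was not tested.

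**Figure D4:**
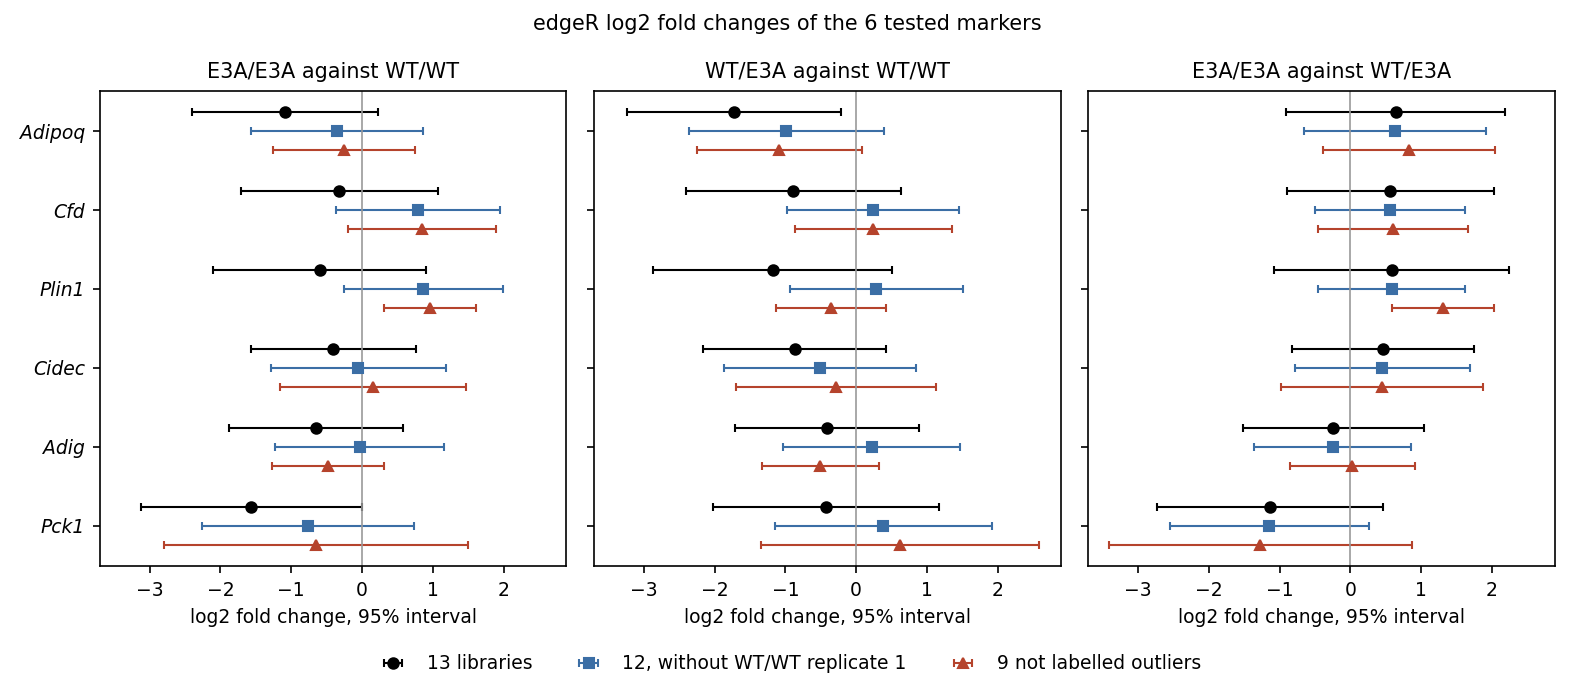
edgeR log2 fold changes with 95% intervals for the 6 tested markers, first-named genotype over second, fitted with all 13 libraries (circles), without WT/WT replicate 1 (squares) and with the 9 that carry no such description as outlier (triangles). Against WT/WT, Cfd and Plin1 move from below 0 to above 0 in E3A/E3A without WT/WT replicate 1, at 0.80 and 0.87; against WT/E3A the 3 fits lie close together for most markers, and Plin1 reaches 1.31 with the 9.

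The spread behind the intervals of the 13-library fit was wide. The biological coefficient of variation edgeR estimated there was 52.3 to 71.1% for the 6 markers, against a median of 23.4% over all genes. The trend edgeR fitted for genes as low as these markers was 32.2 to 36.1%. Each marker lay between percentiles 95.2 and 99.1 of genes. Of 7 relations of the other markers to Adipoq over the 9 hearts not described as potential outliers, taken on log2 CPM, Cidec had the highest Pearson's r with Adipoq, at 0.724 (exact permutation p = 0.0229, adjusted p = 0.11), with a Spearman's rho of 0.617 (exact permutation p = 0.0857, adjusted p = 0.408). Without WT/E3A replicates 2 and 4, the hearts farthest from the median Adipoq level, its r was 0.297. No relation had an adjusted p under 0.05. Over all 13 hearts no correlation with Adipoq is given, because WT/WT replicate 1 stands apart.

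A prefix in the titles, whose meaning the labels do not state, was treated as a possible batch (C2, C3, C4, C6). In C2, both E3A/E3A hearts averaged below the WT/WT heart, which is replicate 1, for 8 of 8 markers. Every library of C2 is described as a potential outlier, so this contrast lies among such libraries only. In C3, E3A/E3A hearts averaged above the WT/WT heart for 4 of 8 markers and below it for 4, and the summed level was 4.81 CPM in E3A/E3A and 6.42 CPM in WT/WT. The WT/E3A heart of C3 was below the WT/WT heart for 8 of 8. Against WT/E3A, E3A/E3A was above for 7 of 8 markers in C3 and for 5 of 8 in C4. C6 held WT/WT hearts only. Most of these values rest on 1 heart on a side and have no test. With the prefix as a term in the edgeR fit of 13 libraries, E3A/E3A over WT/WT was -2.37 for Pck1 (SE 0.60; unadjusted p = 0.00291), -1.27 for Adig (SE 0.45; unadjusted p = 0.0182) and -1.59 for Adipoq (SE 0.64; unadjusted p = 0.0344), each at an adjusted p of 0.924. In that comparison 3 of 6 markers had an unadjusted p under 0.05, as did 245 of 14387 genes. That fit compares genotypes inside C2, C3 and C4 and so rests on WT/WT replicates 1 and 2. With the prefix as a term in the 9 libraries, WT/WT replicate 2 alone carries the comparisons with WT/WT. E3A/E3A over WT/WT was then -1.27 for Adig, -1.75 for Pck1, -0.66 for Adipoq and -0.55 for Cidec. Cfd was at 0.84 and Plin1 at 0.75. WT/E3A over WT/WT was -1.65 for Adig in the same fit, against -0.51 without the prefix, and 5 of 6 markers were lower. E3A/E3A over WT/E3A was 1.47 for Plin1 (unadjusted p = 0.00177, edgeR adjusted p = 0.665) and -1.30 for Pck1 (unadjusted p = 0.0380, edgeR adjusted p = 0.980). These were 2 of 6 markers under an unadjusted 0.05, against 698 of 14373 genes.

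WT/WT replicate 1 also held reads of other fat genes, named here after their values had been seen. Ucp1, the uncoupling protein that defines brown fat, had 58 reads in it (1.33 CPM) and at most 1 read in any of the other 12 hearts, 3 of which had a read. Otop1, another brown adipocyte gene, had 12 reads in it (0.275 CPM) and at most 2 reads or 0.0942 CPM elsewhere. WT/WT replicate 1 was also the deepest library, at 52.6 M counted reads. Adrb3, the beta-3 adrenergic receptor of fat cells, stood at 0.596 CPM in it and at no more than 0.235 CPM in the others. Ucp1 and Otop1 were picked from a list of 10 brown adipocyte genes for peaking in this heart, and neither had enough reads to be tested. Elovl3, Dio2, Cox8b, Cox7a1 and Kcnk3 of the same list had their highest levels in other hearts. Of the brown fat regulators, Lhx8 had no read in any heart and Zic1 none in WT/WT replicate 1. The lipid synthesis gene Fasn was at 130 CPM in this heart and 42.4 to 82.9 CPM in the others, and G0s2, an inhibitor of lipolysis, at 105 CPM and 20.3 to 77.5 CPM. Cebpa, a regulator of fat cell differentiation, was at 19.97 CPM in it and at 19.92 CPM in WT/E3A replicate 1, where the 8 markers summed to only 5.16 CPM. Other adipocyte genes were at their lowest in WT/WT replicate 1. Among the transcription factors, Pparg was at 7.95 CPM (8.50 to 13.3 CPM in the others) and Ebf2 at 6.09 CPM (7.02 to 12.55 CPM). The droplet gene Abhd5 was at 35.6 CPM (38.05 to 60.2 CPM) and the synthesis gene Lpin1 at 193 CPM (227 to 347 CPM). WT/WT replicate 1 was the highest heart for 8 of 12 tested droplet and lipolysis genes and 5 of 13 synthesis genes. The same held for 2 of 13 other white adipocyte genes, 1 of 6 adipocyte transcription factors and 1 of 5 tested brown adipocyte genes (Prdm16). Of all tested genes, 17.3% were highest in it. Its lead over the next heart was 1.015-fold (Lipe) to 1.35-fold (G0s2) in those droplet genes. In those synthesis genes it was 1.018-fold (Dgat2) to 1.567-fold (Fasn). For Lipe, Pnpla2, Mgll, G0s2 and Bscl2 the next heart was WT/E3A replicate 1, and for Pnpla3, Cidea and Fabp4 it was another.

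Beyond the 8 markers, 16 lists of genes were read from the same fits. In the fit of 13 libraries edgeR called no member of any of them in any comparison. In the 9 libraries the calls were all in E3A/E3A against WT/WT, where 0.271% of all genes were called: 2 of 13 tested synthesis genes, 1 of 6 genes of glyceroneogenesis and gluconeogenesis and 1 of 6 precursor markers. Fbp2, a fructose bisphosphatase of muscle, fell (log2 -1.03, SE 0.10, edgeR adjusted p = 0.000866), as did the triglyceride synthesis gene Gpam (log2 -0.41, SE 0.06, edgeR adjusted p = 0.00769) and the NADPH-producing enzyme Me1 (log2 -0.30, SE 0.05, edgeR adjusted p = 0.0314). Pi16, a marker of fat and fibroblast progenitors, rose (log2 0.39, SE 0.07, edgeR adjusted p = 0.0212).

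The adipocyte genes outside the 8 included genes that heart muscle also makes. Lpl, the lipase of the vessel wall that heart muscle also makes, averaged 5039 ± 398 CPM in E3A/E3A (SD, n = 5), 5983 ± 340 CPM in WT/E3A (SD, n = 4) and 5784 ± 663 CPM in WT/WT hearts (SD, n = 4). The fatty acid transporter Cd36 averaged 1477 ± 464, 1606 ± 718 and 1689 ± 733 CPM in E3A/E3A, WT/E3A and WT/WT hearts, and was at 591 CPM in WT/WT replicate 1, where the lowest heart had 549 CPM. Dgat2, which completes triglyceride, averaged 395 ± 25.9, 441.5 ± 58.0 and 440.6 ± 64.1 CPM in E3A/E3A, WT/E3A and WT/WT hearts. The median log2 fold change of E3A/E3A over WT/WT, 13 libraries, was 0.03 for 6 tested transcription factors, -0.14 for 12 droplet and lipolysis genes, -0.13 for 13 synthesis genes, -0.01 for 13 other white adipocyte genes and 0.01 for 7 adipokine receptors. It was -0.05 for 5 genes of glyceroneogenesis and gluconeogenesis, -0.01 for 5 brown adipocyte genes and 0.08 for 6 precursor markers, beside -0.63 for the 6 adipocyte markers and -0.02 over all genes. Without WT/WT replicate 1 these medians moved to -0.04 for the 6 adipocyte markers, 0.26 for the transcription factors, 0.08 for droplet and lipolysis genes, -0.00 for synthesis genes, -0.09 for other white adipocyte genes, -0.10 for adipokine receptors, -0.11 for glyceroneogenesis and gluconeogenesis genes, 0.14 for brown adipocyte genes and 0.06 for precursor markers.

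Among markers of other tissues, 4 of 5 tested skeletal muscle genes had their highest level in WT/WT replicate 1, as did 2 of 8 cardiomyocyte genes and 0 of 7 mesothelial and epicardial genes. Summed mesothelial and epicardial markers, which line the heart's surface, ranged from 15.1 to 22.6 CPM in E3A/E3A, from 12.1 to 21.7 CPM in WT/E3A and from 12.6 to 15.4 CPM in WT/WT hearts. Their median log2 fold change was 0.69 for E3A/E3A over WT/WT, with 0 of 7 called, and 1.11 without WT/WT replicate 1. Thymus markers summed to 1.12 to 1.70 CPM in E3A/E3A, 1.06 to 1.50 CPM in WT/E3A and 1.10 to 1.79 CPM in WT/WT hearts. Lung markers summed to at most 0.176 CPM in any heart. The erythroid gene Alas2 ranged from 7.22 to 17.8 CPM in E3A/E3A, from 8.01 to 9.98 CPM in WT/E3A and from 9.93 to 15.3 CPM in WT/WT hearts, while the hemoglobin symbols of the list were at 0 in each file. The cardiomyocyte, skeletal muscle, macrophage and endothelial lists had median log2 fold changes of -0.00, 0.02, 0.15 and -0.00 for E3A/E3A over WT/WT, and of 0.30, 0.43, 0.22 and -0.01 in the same order without WT/WT replicate 1. Whether the marker differences come from attached fat was not tested.

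Over the 13 hearts, the genes outside the 8 with the pattern most like the mean of the 6 tested markers, by Spearman's rho on log2 CPM, were Mdm2 (0.835), Chad (0.813), Rspry1, Prrt3, Cdo1, Ggt7, A530050N04Rik, Shank2, Fgl1, Myl7, Abcg4 and Car3 (0.72). Only 2 of 14381 genes exceeded 0.8, and 6 of these 12 were highest in WT/WT replicate 1. The least alike were Syde2 (-0.841), Coa7, Slfn10-ps, Adat1 and 2610005L07Rik. Members themselves ranged from 0.885 for Cidec to 0.434 for Adig and 0.379 for Pck1, although each is part of the mean. These values are a description over the 13 hearts, with no test, and they include WT/WT replicate 1. Over the 9 hearts not described as potential outliers, rho was 0.917 for Mdm2 and 0.767 for Chad. It was 0.933 for Cidec, 0.633 for Adig and 0.133 for Pck1 over those 9. Car3, a carbonic anhydrase abundant in adipocytes, was at 7.03 CPM in WT/WT replicate 1 and at 1.18 to 5.46 CPM in the other 12 hearts.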

How the data were processed

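RNA from 13 hearts was measured as poly(A) transcripts. The authors deposited whole-number counts of reads for each gene symbol, made with STAR 2.4.0 and featureCounts 1.4.4 on GRCm38 (mm10), per the submitters' processing notes. The settings for strand and for reads that fit several places are not given in the sources used here. Each file held 24061 symbols, and 0 pairs of files were identical; groups came from the genotype label.

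edgeR 4.0.16 (R 4.3.3) fitted the counts after filterByExpr (minimum count 10, by genotype) and TMM scaling, with a robust quasi-likelihood F test over all 14387 genes that passed. Benjamini-Hochberg adjustment ran over all genes tested in a comparison, with calls made at adjusted values under 0.05. Alternatives were DESeq2 1.42.0, limma-voom (limma 3.58.1), RLE size factors, no filter, the 9 libraries not described as potential outliers, the title prefix as a block, and each library left out. Lengths are exon unions of GENCODE, and promoter sequences are RefSeq's (GRCm38.p6). The correlations used log2 CPM with 0.1 CPM added; likeness used a prior count of 2.

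The 8 markers and the lists were chosen with earlier results of these data known. All 8 are named; of other lists, called genes are named, or the most highly expressed ones as examples. The hepatocyte list and single genes of WT/WT replicate 1 were added after values were seen. As the labels name no molecular identifiers, reads are not independent molecules and the floors cover counting error only.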

Additional observations from a re-analysis of the deposited data

Results flagged for a closer look

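Among 27 sets of values from groups of 4 or 5 hearts, 6 held a heart far from the rest of its group (a gap beyond Dixon's 95% limit). Chance passes that limit in about 1 in 20 independent sets. These sets share the same hearts and are not independent, so the 6 are not weighed against that rate. WT/WT replicate 1 accounted for 4 of the 6, with Adipoq at 1.37 CPM, Retn at 0.641 CPM, Cfd at 5.89 CPM and Plin1 at 2.84 CPM. Its Lep, Cidec, Adig and Pck1 stayed within the limit. So did its summed level, at a ratio of 0.792 against a limit of 0.829. Adipoq at 0.0446 CPM, from 1 read, set E3A/E3A replicate 2 below its group. Cidec at 0.721 CPM set WT/E3A replicate 3 above its group.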

How the results depend on the processing

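No marker was called in any comparison under any of the 21 settings run, and the lowest adjusted p was 0.329. No paired analysis was possible because replicate numbers were given in accession order and pair no hearts. E3A/E3A over WT/WT turned higher with the 9 libraries for Cfd (0.85), Plin1 (0.96) and Cidec (0.16), and with the prefix block in the 9 for Cfd (0.84) and Plin1 (0.75). WT/E3A over WT/WT turned higher with the 9 for Cfd (0.24) and Pck1 (0.62), with the prefix block in the 9 for Cfd (0.02), and with limma-voom for Pck1 (0.06). E3A/E3A over WT/E3A turned higher for Adig with the 9 (0.03) and with the prefix block in the 9 (0.39). The median for WT/E3A over WT/WT moved to -1.71 with the prefix block. Leaving out each library gave medians from -0.86 to -0.04 (E3A/E3A over WT/WT), from -1.24 to 0.23 (WT/E3A over WT/WT) and from 0.28 to 0.78 (E3A/E3A over WT/E3A). Over the same omissions Cfd ran from -0.58 to 0.80 and Plin1 from -0.88 to 0.87 for E3A/E3A over WT/WT. For WT/E3A over WT/WT, Cfd ran from -1.37 to 0.24, Plin1 from -1.82 to 0.29, Adig from -1.15 to 0.22 and Pck1 from -0.76 to 0.38. For E3A/E3A over WT/E3A, Adig ran from -0.54 to 0.49, its highest value without WT/E3A replicate 1. The upper ends against WT/WT were all without WT/WT replicate 1; why these moved was not tested. The other 115 gene values kept their direction, as did 227 from left-out libraries, against 7 that turned. With prefix blocks, comparisons with WT/WT rest on WT/WT replicates 1 and 2 only, or on replicate 2 alone in the 9, a lone heart assumed to vary like the other groups. Depth limits Lep and Retn: single reads separate most of their values.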
